A study of Mus musculus with 12 samples.

Results

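Mouse genes that have never been given a descriptive name carry placeholder symbols. They are Gm followed by a number for predicted loci, symbols ending in Rik for cDNAs of a large clone collection, and symbols ending in os for transcripts that run opposite to a named gene. The peaks described here are those in the authors' list of significant differential m6A peaks whose gene has such a symbol, with Gm26917, which had 2 rows, left out. There were 81 of them among 1233 listed peaks, in 77 genes. Gm symbols accounted for 39 peaks, Rik symbols for 39 and os symbols for 3. The authors' symbol column was empty at many noncoding genes, so 44 of the 81 were found by the gene symbol of their Ensembl identifier and 37 by the deposited symbol itself.

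The study measured m6A in pancreatic islets of 8-week-old C57BL/6 mice on normal chow. The knockout group (β-Mettl3-KO, here KO) had Mettl3 flox/flox alleles and RIP-Cre, in which a rat insulin promoter drives Cre in β-cells. Islets of 12 such mice formed 3 pools. The control group was Mettl3 flox/flox without Cre, with 9 mice in 3 pools, so both groups carry the floxed alleles. Other islet cell types of the KO keep Mettl3, and each value is a mean over pooled animals. Fragmented RNA of each pool gave an IP library, precipitated with an antibody against m6A, and an input library. No Mettl3 peak was analysed here, so the genotype labels were not checked at the deleted gene.

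METTL3 catalyses N6-methylation of adenosine in nuclear RNA, mostly within a short motif named DRACH. Long noncoding RNAs are transcribed, spliced and methylated by the same machinery as mRNA but are not translated into a known protein. They are classed by position. A lincRNA lies between coding genes, an antisense RNA runs opposite to a coding gene, and a bidirectional-promoter RNA starts next to a coding gene and runs the other way. Processed pseudogenes are copies of mRNAs pasted back into the genome, and TEC marks a locus whose coding status is still to be tested. In bulk islet RNA, fewer cells of a type and less RNA per cell cannot be told apart.

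The shared term for these loci, noncoding, did not hold for all of them. By GENCODE M21, 38 of the 81 peaks lay in noncoding genes (36 genes), 6 in processed pseudogenes, and 34 in 32 protein-coding genes. The identifiers of the other 3 peaks (2610524H06Rik, Gm43796 and Gm28285) were not in that annotation. The noncoding peaks comprised 14 in lincRNAs, 13 in antisense RNAs, 4 in bidirectional-promoter RNAs, 3 in TEC loci, 2 in processed transcripts, 1 in a sense-intronic RNA and 1 in a locus typed as a miRNA. For 7 symbols RefSeq holds a proper name. They are Oip5os1 for 1700020I14Rik, Depp1 for 8430408G22Rik, Aopep for 2010111I01Rik, Lcor for Gm340, Spring1 for 2410131K14Rik, Dennd11 for E330009J07Rik and Catspere2 for Gm16432.

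The sequences that follow are the middle 100 bases of peaks in 6 noncoding loci that fell in the KO and of 3110080O07Rik, a noncoding locus whose enrichment rose, read 5′ to 3′ on the transcript strand from GENCODE M21 transcripts on GRCm38. Capitals mark matches to DRACH, and neighbouring matches can run together.
Gm46123, lincRNA, chr9:83353600-83353699, plus strand: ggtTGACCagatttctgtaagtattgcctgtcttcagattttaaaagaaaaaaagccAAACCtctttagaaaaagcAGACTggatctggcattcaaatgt
4632428C04Rik, lincRNA, chr16:30019986-30020085, plus strand: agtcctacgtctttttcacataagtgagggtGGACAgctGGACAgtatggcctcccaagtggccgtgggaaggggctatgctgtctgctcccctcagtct
Gm48139, TEC, chr13:96607017-96607116, plus strand: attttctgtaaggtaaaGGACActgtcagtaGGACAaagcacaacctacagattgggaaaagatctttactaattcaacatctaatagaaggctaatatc
4930480K23Rik, lincRNA, chr14:69743678-69743777, plus strand: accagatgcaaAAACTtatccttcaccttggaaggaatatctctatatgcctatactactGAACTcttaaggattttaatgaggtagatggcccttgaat
Gm30648, lincRNA, chr3:134212126-134212225, plus strand: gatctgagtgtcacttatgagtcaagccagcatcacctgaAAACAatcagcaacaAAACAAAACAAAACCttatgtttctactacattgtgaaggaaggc
A330023F24Rik, processed transcript, chr1:195036205-195036304, plus strand: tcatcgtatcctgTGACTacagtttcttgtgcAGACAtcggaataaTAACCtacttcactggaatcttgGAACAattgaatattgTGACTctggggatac
3110080O07Rik, TEC, chr3:51829627-51829726, minus strand: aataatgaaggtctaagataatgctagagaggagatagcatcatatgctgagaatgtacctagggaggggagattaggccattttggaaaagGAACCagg

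Of the 78 peaks that could be placed on a transcript, 74 (94.9%) held DRACH in the middle 100 bases, and 1070 of the other 1152 listed peaks (92.9%) did. Among noncoding peaks the count was 36 of 38. The core GGAC, a form of DRACH when A, C or T follows, was present in 33 of 78 (42.3%), against 498 of 1152 (43.2%). On the opposite strand of the same windows, 67 of 78 held DRACH, as did 941 of the other 1152 listed peaks. Of the peaks that the authors listed as higher in the KO, 5 of 7 held the motif, and of those listed as lower, 69 of 71 did. In the other listed peaks the motif was in 80.2% of those listed as higher and 93.8% of those listed as lower. All 78 peaks held it over their whole length.

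Total reads were 17082320 to 22257803 in IP libraries and 16832779 to 20937525 in input libraries. Counts at the 81 peaks had library medians of 274 to 826 in IP and 79 to 96 in input. Control IP pool 1 stood apart from the other control IP pools. Listed peaks took 9.15% of its reads, against 13.5% and 14.2% in control pools 2 and 3 and 7.83% to 9.73% in the KO IP libraries. Main counts and those by annotated type are therefore also given without it. Enrichment is the ratio of IP signal to input signal, both in RPM (reads scaled to the total of each library), within a pool, with IP and input paired by the pool number in the titles.

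The main comparison asked how m6A enrichment at these loci differed between KO and control islets. Enrichment fell at 51 of the 81 peaks and rose at 2 in edgeR's quasi-likelihood test (Benjamini-Hochberg adjusted p under 0.05 over all 1233 peaks). Over the whole list 55.6% fell and 2.27% rose. The median log2 change was -1.08 for the 81 peaks and -1.02 over all listed peaks. It was -1.07 in noncoding loci, where 24 of 38 fell and 1 rose, and -1.07 in coding genes, where 22 of 34 fell and none rose. The remaining 28 peaks were not called.

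The authors' deposited table listed 74 of the 81 as lower in the KO and 7 as higher, beside 92.9% and 7.14% of the whole list. That list was chosen on these same libraries, so the tests say how a difference compares with the scatter of the pools and cannot serve as independent support. All 3 KO pools lay below all 3 control pools at 47 of the 81 peaks, beside 53.5% of the list, and above them at 2, beside 3%. These 2 were 3110080O07Rik and Gm6368. Among the 51 falls, 14 had overlapping pools. Without control pool 1, with only 2 control pools left to separate from, KO pools lay below at 68 peaks and above at 4. That count was not made over the list, so it cannot be read as a trait of these loci.

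Scaled to each other instead of to total reads (TMM on the listed peaks), 1 peak fell and 2 rose, in place of 51 and 2. Over the list TMM called 9 falls and 39 rises. The median change of all listed peaks then moved by nearly its whole size, to -0.07, and that of the 81 peaks to -0.10. TMM takes most peaks as unchanged, whereas 92.9% of this list was chosen as lower in the KO. The shift of the median and the loss of most falls thus follow from the scaling. A fall lost under TMM says only that the change was not set apart from that of the list. Directions below are therefore relative to total reads. IP and input of a pool come from the same RNA; with each pool as a replicate block, 39 fell and 1 rose, and 13 of the 53 calls were lost, among them those of 3110080O07Rik, Gm26377 and 1700020I14Rik (adjusted p = 0.055, 0.059 and 0.076). Without control pool 1, 62 fell and 4 rose, beside 976 and 58 of all 1233 listed peaks. The falls then numbered 26 of 38 in noncoding loci, 29 of 34 in coding genes and 4 of 6 in pseudogenes, and the rises 1, 1 and 2. Without KO pool 2, KO pool 3, control pool 2 or control pool 3, falls numbered 12, 12, 14 and 16, beside 91, 111, 168 and 141 over the list. Of the 53 called peaks, 7 kept their call whichever pool was left out.

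**Figure D1:**
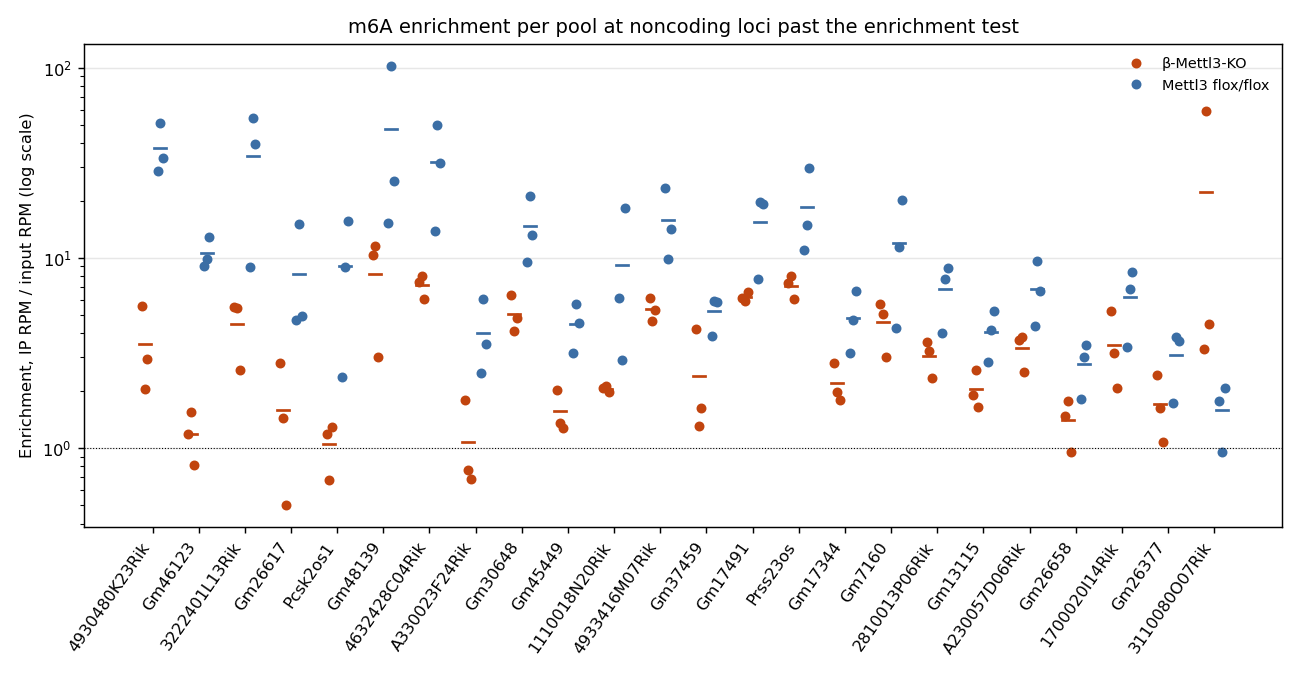
Enrichment (IP RPM over input RPM, log scale) in each pool at the noncoding loci past the enrichment test, 1 locus per column, with the lower-changed loci to the left. Points are pools, KO left and control right, short bars are means of 3 pools, and the dotted line marks equal IP and input; 3222401L13Rik is drawn once. KO points of Gm46123 lie at 0.816 to 1.54 and control points at 9.06 to 12.9, while 3110080O07Rik on the far right is higher in the KO, with pools at 3.3, 4.5 and 58.8.

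Among lincRNAs, 11 of 14 peaks fell and none rose, beside 55.6% and 2.27% of the list. Pools did not overlap at 10, with the KO lower, beside 53.5% of the list. The 14 peaks lay in 13 genes, as 3222401L13Rik has 2 nearly identical rows, both among the falls. Without control pool 1, 12 fell, beside 976 of 1233 listed peaks, and 13 did not overlap, a count not made over the list. The largest separation by adjusted p among all 81 peaks was at Gm46123, a lincRNA on chromosome 9. Its enrichment was 1.18, 1.54 and 0.816 in KO pools, against 9.06, 9.8 and 12.9 in control pools. All KO pools lay near a ratio of 1, the level of no enrichment, and all control pools lay far above it. Control input was low at this locus (RPM values below), so the limit on low counts described for 4930480K23Rik applies to these control ratios too. The log2 change was -3.19 ± 0.67 (SE; edgeR adjusted p = 0.00026), and the call held without each pool and under TMM, where the change was -2.17 (adjusted p = 0.046). Both sides of the ratio moved, since IP signal fell by 1.15 (adjusted p = 0.020) and input rose by 2.04 (adjusted p = 0.0031) on the log2 scale. The IP call was lost without KO pool 2, KO pool 3, control pool 2 or control pool 3.

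At 4632428C04Rik, a lincRNA on chromosome 16, enrichment was 7.5, 8.01 and 6.07 in KO pools, against 13.8, 50 and 31.5 in control pools. The KO pools were close together and below every control pool, which were widely spread. The log2 change was -1.93 ± 0.48 (SE; edgeR adjusted p = 0.0021), and this call also held without each pool, but not under TMM (-0.98, adjusted p = 0.27). Gm30648, on chromosome 3, had 6.36, 4.1 and 4.8 in KO pools and 9.54, 21.2 and 13.1 in control pools. Its groups did not overlap, its log2 change was -1.53 ± 0.43 (SE; edgeR adjusted p = 0.0051), and its IP signal fell by 1.13 with no change called in input. The enrichment call was lost without KO pool 2 or control pool 2.

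Gm26617, on chromosome X, had enrichment of 2.80, 1.43 and 0.5 in KO pools and 4.72, 15.1 and 4.92 in control pools. The fall of 2.5 on the log2 scale (edgeR adjusted p = 0.0032) was lost without KO pool 3. A stretch of 186 bases, 56.2% of the peak, matched the opposite strand of the zinc finger gene Zxdb at 100% identity, so reads of these loci may be shared. 3222401L13Rik had 2 nearly identical rows on chromosome 18, with log2 changes of -2.47 and -2.55 that both held without each pool. Although typed as a lincRNA, it lay in the bodies of the coding genes Gm42416, Gm37013 and Gm37388 on the same strand, outside their exons.

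4930480K23Rik, on chromosome 14, had the largest fitted fall, -3.62 ± 1.06 (SE; edgeR adjusted p = 0.0067), and the fewest input reads of the lincRNAs named here. Its enrichment was 5.57, 2.04 and 2.93 in KO pools and 28.6, 51.4 and 33.3 in control pools. The control ratios rest on input counts of 1, 1 and 3, against 5, 21 and 17 in KO pools. Of the 88 input counts of 30 or less at the 81 peaks, 77 were odd, so what a single count stands for is uncertain, and ratios on counts this low should be read with that limit. The enrichment call was lost without KO pool 2 or control pool 3.

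1700020I14Rik is Oip5os1, also known as Cyrano, a conserved lincRNA that in mouse directs the destruction of miR-7, a miRNA abundant in islets. Its enrichment was 5.25, 3.14 and 2.06 in KO pools, against 3.39, 6.83 and 8.41 in control pools, so the groups overlapped. The log2 change was -0.97 ± 0.41 (SE; edgeR adjusted p = 0.036) under total reads, lost without KO pool 2, KO pool 3, control pool 2 or control pool 3, and 0.03 under TMM. RefSeq gives miR-7a-5p and GENCODE the Oip5os1 transcripts. The lines show the miRNA with its seed, bases 2 to 8, in capitals, then both matches of the transcripts to that seed (GTCTTCC), also in capitals, to place the peak relative to them.
miR-7a-5p: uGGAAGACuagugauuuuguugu
Match inside the peak, chr2:119599948-119599971, plus strand: aggttttttttttaatGTCTTCCa
Match beyond the peak, chr2:119602138-119602161, plus strand: caacaaaatcaccaatGTCTTCCa
The peak spanned chr2:119596481-119600606 with 1050 spliced bases. The match beyond it lay 1548 bases downstream of the peak. The bases printed before that match also pair in an unbroken run with the 3′ part of the miRNA, and those before the match inside the peak do not. Which match acts on miR-7 was not tested.

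Without strand, reads of an antisense RNA and of the gene it faces cannot be told apart, and the strand setting used in counting was not stated in the labels or headers. Of 13 such peaks, 7 fell in enrichment and none rose, beside 55.6% and 2.27% of the list. In IP signal 7 fell and 2 rose, beside 64.8% and 2.92%. Pools did not overlap at 8, with the KO lower, beside 53.5% of the list. Without control pool 1, enrichment fell at 8, beside 976 of 1233 listed peaks. IP signal then fell at 8 and rose at 2, beside 1037 and 64 of the list. Pools did not overlap at 9, a count not made over the list. Of the 3 os transcripts, Pcsk2os1 runs opposite to Pcsk2, which encodes a prohormone convertase of islet cells. Its enrichment was 1.19, 0.676 and 1.29 in KO pools, against 2.35, 8.97 and 15.7 in control pools. The KO pools were again near 1, and the fall of 2.48 ± 0.85 on the log2 scale (SE; edgeR adjusted p = 0.015) was lost without KO pool 2, KO pool 3, control pool 2 or control pool 3. No coding exon lay under this peak on either strand, and its input counts were 5 to 37.

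Prss23os covers the opposite strand of Prss23, a gene for a secreted serine protease. Enrichment was 7.35, 8.02 and 6.08 in KO pools and 11, 14.9 and 29.5 in control pools, a log2 change of -1.26 ± 0.43 (SE; edgeR adjusted p = 0.015). Here IP signal rose, at 70.7, 57.8 and 54.9 RPM in KO pools and 22.8, 37.5 and 43.9 RPM in control pools, while input rose further. The enrichment call was lost without KO pool 2, KO pool 3 or control pool 3. The listed Prss23 peak contained the whole Prss23os peak, which held 61.3% to 83.3% of its counts in each library, and Prss23 changed by -1.32 in enrichment and 2.17 in input. Slfn5os, opposite to Slfn5, was listed as higher by the authors. It had 27.6, 95.6 and 12.2 in KO pools and 6.62, 15.6 and 23.7 in control pools, which overlapped, and edgeR did not call it (0.84, adjusted p = 0.19).

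Of the 81 peaks, 12 shared bases with a listed peak of another gene, 5 on the same strand and 7 on the opposite strand. In 3 of the same-strand pairs the peaks were nearly the same reads. Gm38394 held 95.3% to 100% of the reads of Zc3h11a in each library and changed by -1.21, against -1.22 for Zc3h11a, a call lost without KO pool 2, KO pool 3, control pool 2 or control pool 3. Gm28036 and Rbm12 both changed by -0.79, and Gm20716 and the neurodevelopmental gene Adnp both by -0.45, none of these 4 past the test; under TMM Gm28036 was 0.19 and Gm20716 0.49. Gm43796 lay wholly in the Tbc1d24 peak with 29.1% to 98.3% of its reads and changed by -1.59, against -1.54, a call lost without KO pool 2 or control pool 2. Gm28285 shared 34.3% of its bases with a peak of Matr3, and neither was called in enrichment.

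On opposite strands the share of reads varied more between pairs. Gm45449 fell by 1.53 (edgeR adjusted p = 0.0096) and Rnf150, which encodes a ring finger protein, by 1.44 on the log2 scale. Gm17344 fell by 1.17 (adjusted p = 0.016), against 1.26 for Ap1g1, an adaptor subunit of clathrin-coated vesicles. 1110018N20Rik fell by 1.41 (adjusted p = 0.034), against 1.72 for Ptgis, the prostacyclin synthase, although only 33.8% of its bases were shared. 4933416M07Rik fell by 1.33 (adjusted p = 0.031), whereas Rab11fip1, which encodes an effector of membrane recycling, changed by -0.78 and was not called (adjusted p = 0.14). Neither Gm27241 (adjusted p = 0.20) nor Rfx7 (adjusted p = 0.058) was called. In these pairs the strand that carried the m6A cannot be told apart. Each of the 4 enrichment calls named in this group was lost without KO pool 2, and each also without 2 or more other pools.

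**Figure D2:**
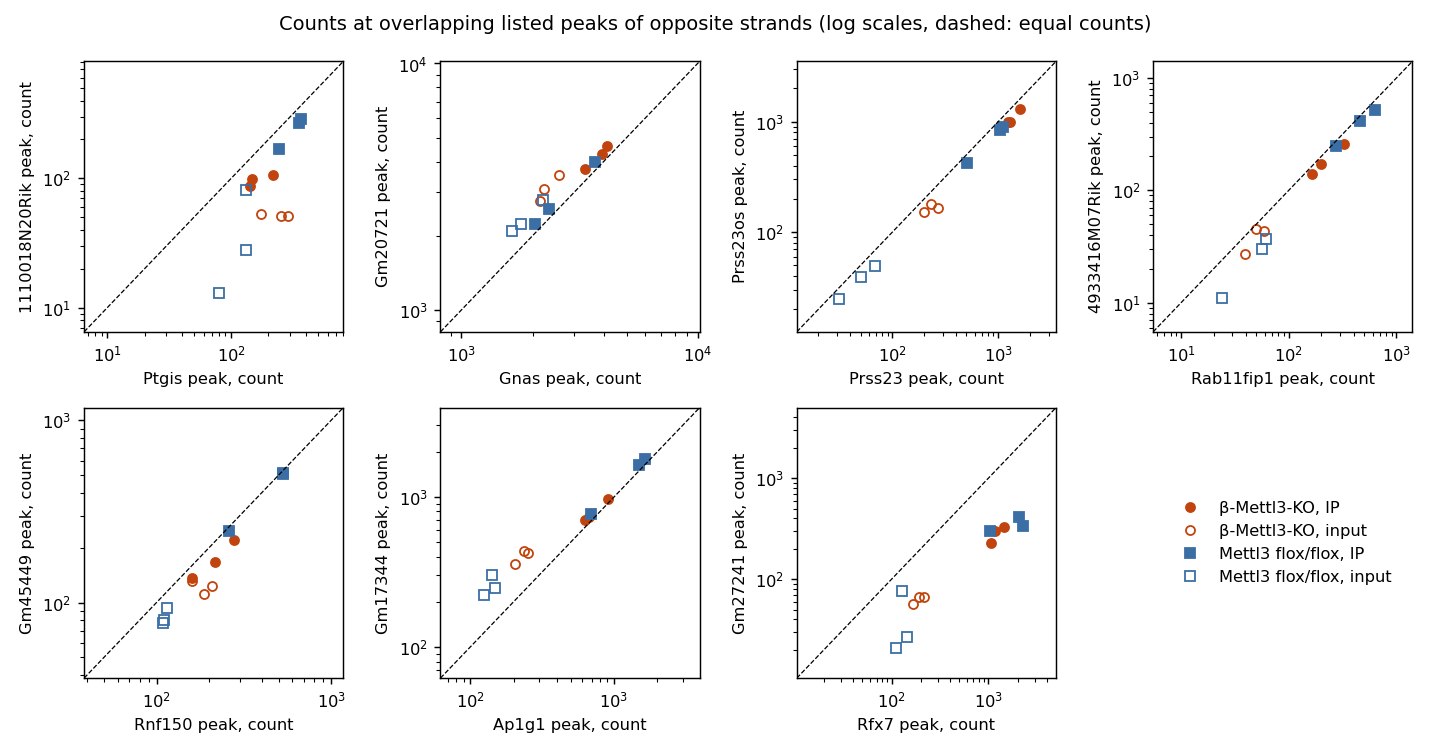
Read counts of 7 peaks (y axis) against the listed peak of the gene on the opposite strand that they overlap (x axis), 1 panel per pair, log scales; orange circles are KO, blue squares control, filled IP and open input, 1 point per library, and the dashed line marks equal counts. Prss23os lies below the line at 61.3% to 83.3% of the Prss23 counts, Gm20721 above it at 109% to 138% of the Gnas counts, and Gm27241 furthest below it at 14.8% to 60.6% of the Rfx7 counts.

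Of the 4 loci with the highest input, 3 faced or lay in an exon of another coding gene, and 1810013L24Rik did not. Gm20721, on the opposite strand of Gnas, the stimulatory G protein subunit through which incretin receptors act, had 147, 169 and 169 input RPM in KO pools and 119, 144 and 124 in control pools. Its IP signal rose by 0.69 (edgeR adjusted p = 0.018), lost without KO pool 2, control pool 2 or control pool 3, and its enrichment was not called (0.36, adjusted p = 0.33). Gm26918 faced an exon of Pclo, the active-zone scaffold Piccolo, with IP signal of 191, 174 and 162 RPM in KO pools and 354, 374 and 401 RPM in control pools. IP signal fell there without overlap, by 1.10 (adjusted p = 0.00041), a call kept without each pool. Its enrichment change of -0.79 narrowly missed the threshold (adjusted p = 0.052) and was 0.11 under TMM.

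Gm26658 faced Syt4, a vesicle synaptotagmin, and fell by 1.03 (edgeR adjusted p = 0.023; -0.05 under TMM). Gm26377, typed as a miRNA, lay within an exon of the translation elongation factor Eef1a1, so its 108 bases cannot be separated from that mRNA. It fell by 0.96 (adjusted p = 0.027) under total reads and was 0.04 under TMM. Both calls were lost without KO pool 2, KO pool 3, control pool 2 or control pool 3. Gm17690, opposite to Mtmr11, lost IP signal (-1.22, adjusted p = 0.0010) with no call in enrichment, where it was -0.84 under total reads and 0.14 under TMM. Gm26714, opposite to Tcim, gained IP signal at 1.03 (adjusted p = 0.0012) and kept that call without each pool, while its enrichment was not called (0.48, adjusted p = 0.22). Gm11973, opposite to Purb, had 1.65 and 0.17 in the 2 log2 columns of the authors' deposited table (the differential value and the ratio of mean enrichments), beside 0.23 here, which was not called and was -0.12 without control pool 2.

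Across the 81 peaks, 36 (44.4%) overlapped the body of another coding gene by at least 1 base, 17 on its strand and 20 on the opposite strand, 1 of them on both. Of the other 1152 listed peaks 114 (9.90%) did. In exons the counts were 23 of 81 and 62 of 1152 (5.38%). Antisense and sense-intronic types, like os symbols, are given for lying over or opposite to another gene. These are 13 antisense peaks, which hold the 3 with os symbols, and 1 sense-intronic peak. Part of the difference from the other listed peaks therefore follows from how the loci are typed. The 24 noncoding peaks with no coding exon on either strand had a median log2 change of -1.20, with 17 falls and 1 rise. The 13 opposite to a coding exon had -0.84, with 6 falls and no rise. Over the list 55.6% fell and 2.27% rose. The difference between the 24 and the 13 peaks was not tested.

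Some members are host genes of miRNAs. A330023F24Rik is the host transcript of miR-29b-2 and miR-29c, 2 miRNAs of a family that in mouse β-cells represses the lactate transporter Slc16a1. Its peak, chr1:195036135-195036375, ended 664 bases before the miR-29b-2 hairpin and 1171 bases before that of miR-29c. The mature forms from RefSeq on GRCm38 are shown with the seed in capitals, which these 2 share.
miR-29b-3p: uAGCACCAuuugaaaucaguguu
miR-29c-3p: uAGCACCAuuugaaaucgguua
Enrichment was 1.78, 0.763 and 0.688 in KO pools, against 2.47, 6.08 and 3.53 in control pools, without overlap. IP signal was 3.89, 1.93 and 1.17 RPM in KO pools and 6.96, 11 and 9.02 RPM in control pools. The IP fall of 1.94 (edgeR adjusted p = 0.00038) was the largest among the 81 peaks, and it held without each pool and under TMM (-1.26, adjusted p = 0.041). The enrichment fall of 1.78 ± 0.65 (SE; adjusted p = 0.019) was lost without KO pool 2, KO pool 3, control pool 2 or control pool 3. Input was 2.18, 2.53 and 1.70 RPM in KO pools and 2.82, 1.80 and 2.55 RPM in control pools, not called. Levels of the mature miRNAs were not measured.

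2010111I01Rik is Aopep, which encodes an aminopeptidase and holds the miR-23b, miR-27b and miR-24-1 hairpins. Its peak ended 1038 bases before the miR-23b hairpin. IP signal fell by 1.30 (edgeR adjusted p = 0.00037), a call kept without each pool, while enrichment was 2.21, 1.62 and 3.15 in KO pools and 2.64, 6.95 and 3.95 in control pools. The groups overlapped and the enrichment change was not called (-0.88, adjusted p = 0.062; 0.03 under TMM). A230057D06Rik, a lincRNA on chromosome 7 that spans the miR-344 cluster, fell in enrichment by 1.03 (adjusted p = 0.023), with 3.69, 3.82 and 2.5 in KO pools and 4.37, 9.6 and 6.68 in control pools. That call was lost without KO pool 2, KO pool 3, control pool 2 or control pool 3, and the change was -0.10 under TMM. Its peak lay at the first exon, 49746 bases or more from each hairpin of the cluster.

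The other noncoding types held few peaks. Of 3 TEC loci, Gm48139 fell by 2.21 ± 0.58 on the log2 scale (SE; edgeR adjusted p = 0.0028), with enrichment of 10.3, 11.5 and 3 in KO pools and 15.2, 102 and 25.2 in control pools. Its control input counts were 10, 5 and 11, and the call was lost without KO pool 3 or control pool 2. The Gm48139 peak lay in the body of the coding gene Col4a3bp on the same strand, outside its exons. 3110080O07Rik, inside an intron of the Notch coactivator Maml3, was the noncoding locus whose enrichment rose. It had 3.3, 58.8 and 4.5 in KO pools and 1.77, 0.948 and 2.06 in control pools, without overlap. The value of 58.8 rests on an input count of 1, and the rise of 2.52 ± 1.09 (SE; adjusted p = 0.040) was lost without KO pool 2, KO pool 3, control pool 2 or control pool 3. Its input counts were 5, 1 and 7 in KO pools and 11, 23 and 6 in control pools, under the same limit on low counts.

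Gm37939 was the only 1 of the 81 whose 2 deposited log2 columns had opposite signs, and 3 peaks of the list did. The authors' deposited differential value was -1.18, beside 0.25 here, which was not called and was -0.15 without control pool 2. All 358 bases of the Gm37939 peak faced exons of Vps37b on the opposite strand, and 91 lay in exons of Hip1r on its own strand. Its reads therefore cannot be told apart from those of these genes. Of 4 peaks in bidirectional-promoter RNAs all 4 lost IP signal and 1 fell in enrichment, beside 64.8% and 55.6% of the list. They include 2 rows of 4632427E13Rik that share nearly all their bases, where IP signal fell by 0.94 in both and enrichment, at -0.47 and -0.43, was not called and became positive under TMM. The lincRNAs Gm34759 and Gm19590 also lost IP signal, by 1.5 and 0.96, without an enrichment call. The Gm19590 IP call was lost without KO pool 2, KO pool 3, control pool 2 or control pool 3, and those of 4632427E13Rik without KO pool 2, KO pool 3 or control pool 2. For Gm19590 the authors' deposited table gave -2.79 as differential value and -0.47 as ratio of mean enrichments, beside an enrichment change here of -0.83 (adjusted p = 0.097) that was 0.16 under TMM.

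Among 6 processed pseudogenes, 3 fell in enrichment and 1 rose, beside 55.6% and 2.27% of the list. IP signal fell at 2 and rose at 2, beside 64.8% and 2.92%. Gm10167, on chromosome 5, was the pseudogene whose enrichment rose. Its enrichment was 4.18, 3.71 and 2.13 in KO pools, against 2.18, 0.747 and 1.54 in control pools. The groups overlapped by a small margin, since KO pool 3 lay under control pool 1. The rise of 1.22 ± 0.46 (SE; edgeR adjusted p = 0.023) became 2.06 under TMM (adjusted p = 0.020) and was lost without KO pool 1, KO pool 2, control pool 2 or control pool 3.

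Gm6368 matched Hsp90ab1, the constitutive HSP90 chaperone, over 97.8% of its peak at 95.1% identity. It had 7.26, 10.8 and 5.7 in KO pools and 5.15, 3.68 and 2.91 in control pools, without overlap, but the change of 0.89 was not called (adjusted p = 0.057). Its IP signal rose by 1.03 (adjusted p = 0.0031), lost without KO pool 2 or control pool 3. In all, 9 of 78 placed peaks had a stretch of at least 100 bases at 95% identity or more in a transcript of another locus, 4 of them pseudogenes, and reads of such copies may be split.

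Of the 34 peaks in coding genes 24 fell and 1 rose in IP signal, beside 64.8% and 2.92% of the list. Falls in enrichment numbered 22, beside 55.6% of the list. The strongest was Gm45871, a predicted coding gene on chromosome 18, with 2.86, 3.04 and 0.959 in KO pools and 7.46, 17.9 and 12.3 in control pools. It fell by 2.67 ± 0.58 on the log2 scale (SE; edgeR adjusted p = 0.00041) and kept the call without each pool. 9530077C05Rik (-2.57) and 2610008E11Rik (-2.32) also kept theirs. Gm3604, which shares 8.90% of its peak with another locus, fell by 2.34 (adjusted p = 0.0031) and 1700123O20Rik by 1.67 (adjusted p = 0.0024), the first lost without KO pool 3 or control pool 2 and the second without control pool 2. Gm340, which is the ligand-dependent corepressor Lcor, was among the peaks not called (-0.32, adjusted p = 0.42), and was 0.61 under TMM.

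Among the coding genes 2 had more than 1 listed peak. 1810013L24Rik fell by 1.09 (edgeR adjusted p = 0.016) and 1.08 (adjusted p = 0.015) at separate peaks. 2210016F16Rik fell by 1.55 at both of its peaks (adjusted p = 0.018 and 0.0069). Both calls of 1810013L24Rik and the first of 2210016F16Rik were lost without KO pool 2, KO pool 3, control pool 2 or control pool 3, and the second of 2210016F16Rik without KO pool 3 or control pool 2. The peaks of each gene share the same RNA and are not replicates of each other.

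Further comparisons separated the IP and the input side of the ratio, on the same libraries. IP signal fell at 52 of the 81 peaks and rose at 5, beside 64.8% and 2.92% of the list. The median log2 change in IP was -0.76 for the 81 peaks and -0.76 for the list. Enrichment and IP both fell at 35 peaks, beside 42.1% of the list, and at 33 of these input was not called. A further 17 lost IP signal without an enrichment call, and 15 fell in enrichment without a call in IP. Without control pool 1, IP fell at 65 peaks and without KO pool 2, KO pool 3, control pool 2 or control pool 3 at 16, 15, 26 and 16. Over the list these counts were 1037, then 245, 283, 421 and 266. TMM left 1 fall in IP and gave 7 rises, beside 27 and 75 over the list.

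**Figure D3:**
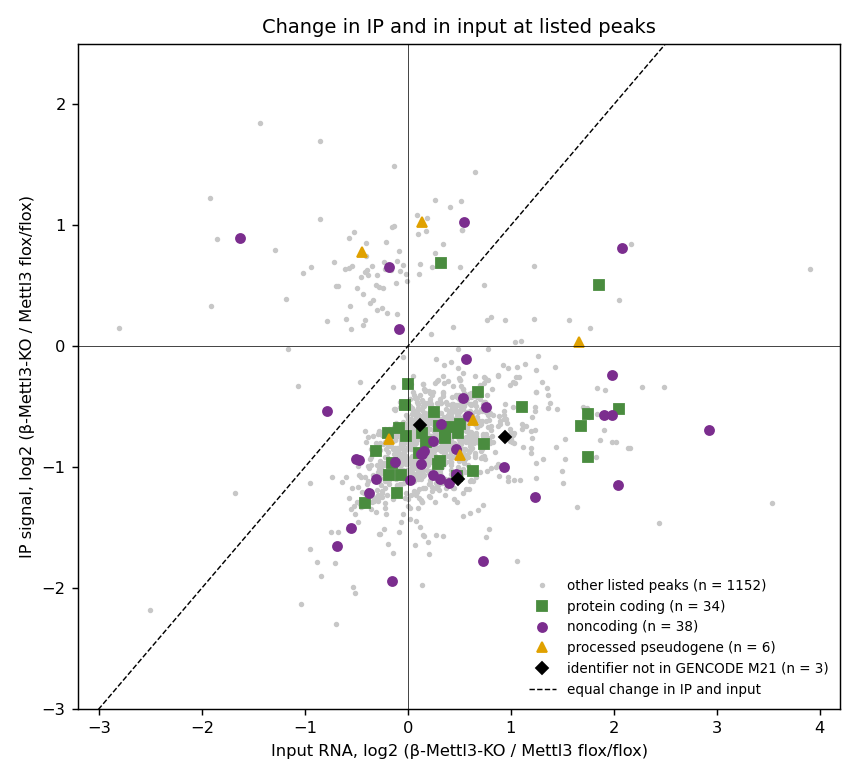
Log2 change (KO over control) of input on the x axis and of IP on the y axis, from the edgeR fit, for 81 peaks coloured by GENCODE class and 1152 other listed peaks in grey; below the dashed line enrichment is lower in the KO. Most points lie below 0 on the y axis and near 0 on the x axis, while 12 of the coloured points lie to the right, at input changes of 1.66 to 2.92.

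Input RNA rose at 12 of the 81 peaks, in 11 genes, beside 6% of the list, and fell at none, beside 0.649%. By unadjusted p under 0.05, 21 rose and 1 fell in edgeR's test. That count was not made over the list, where adjusted calls also ran upward, with 74 rises and 8 falls. It cannot be read as a trait of these loci. DESeq2 called 3 falls and TMM 1, beside 66 and 32 over the list. The median log2 change of input was 0.31, against 0.22 over the list. At all 12 peaks the 3 KO values lay above the 3 control values, and 6 kept the call without each pool. The count without single pools was 8 to 13, beside 31 to 119 over the list, and TMM kept the direction of all 12.

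Each of these 12 peaks also fell in enrichment, which makes 14.8% of the 81 peaks, beside 5.68% of the list. Over the list, 70 of 74 peaks whose input rose also fell in enrichment. Input is the denominator of enrichment, so these are not separate results. IP signal was not called at 9 of them, fell at 2 (Gm46123 and Gm45871) and rose at 1 (Prss23os). Of the 12 peaks 6 were noncoding, 5 coding and 1, Gm18706, a pseudogene.

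The largest input level among them was at 8430408G22Rik, the coding gene Depp1, a FOXO target induced by fasting. Input was 43.1, 39.7 and 25.6 RPM in KO pools, against 8.77, 12.7 and 8.50 RPM in control pools. The lowest KO pool was above the highest control pool, and the log2 change was 1.85 ± 0.28 (SE; edgeR adjusted p = 1.6e-08). IP signal was 170, 115 and 119 RPM in KO pools and 76.4, 102 and 106 RPM in control pools and was not called (0.51, adjusted p = 0.075). Enrichment fell by 1.34, lost without KO pool 2 or control pool 3.

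Prss23os had input of 9.62, 7.21 and 9.02 RPM in KO pools and 2.07, 2.53 and 1.49 RPM in control pools, a log2 change of 2.08 ± 0.33 (SE; edgeR adjusted p = 6.9e-08). Gm46123 had 3.35, 2.82 and 3.06 RPM in KO pools and 0.372, 1.08 and 0.772 RPM in control pools. Gm48139 had 1.86, 1.48 and 2.35 RPM in KO pools and 0.532, 0.258 and 0.653 RPM in control pools, a change of 1.98 (adjusted p = 0.0012). These 4 genes and both rows of 3222401L13Rik kept the input call without each pool. For 4930480K23Rik (2.92, adjusted p = 0.024), Gm3604 (1.68, adjusted p = 0.014) and Gm18706 (1.66, adjusted p = 0.0049) it was lost without at least 2 of the 6 pools.

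**Figure D4:**
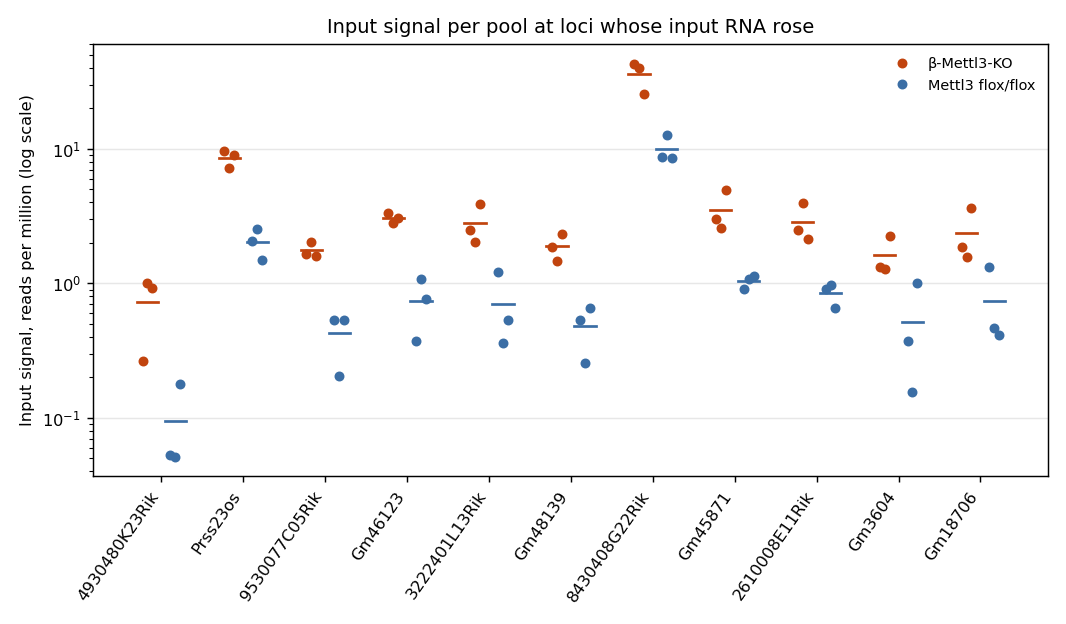
Input signal (RPM, log scale) in each pool at the 11 genes whose input RNA rose, KO left and control right within each column; points are pools, bars are means of 3 pools, and 3222401L13Rik is drawn once. KO and control points are apart in every column, and levels run from 25.6 to 43.1 RPM in the KO at 8430408G22Rik down to control values of 0.0515 to 0.178 RPM at 4930480K23Rik.

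Input at the listed peaks of islet cell markers stands beside these rises. The sums cover listed peaks only, are not levels of whole transcripts, and were not split by gene. Of 8 β-cell markers, 3 had listed peaks (Mafa, Nkx6-1 and Ucn3), with summed input of 158 to 220 RPM in KO pools, against 363 to 420 RPM in control pools, without overlap. Of these peaks the authors listed 2 as lower and 2 as higher in enrichment. Ins1, Ins2, Iapp, Slc2a2 and Pdx1 had no listed peak. Of 7 endothelial markers 4 had listed peaks, with 42.4 to 84.2 RPM in KO pools and 77.8 to 84.6 RPM in control pools. Stromal (1 of 6), immune (1 of 6) and ductal (1 of 4) markers summed to 0.164 to 1.10, 1.67 to 2.5 and 16.8 to 28.9 RPM in KO pools, against 0.876 to 1.12, 2.42 to 3.03 and 17.5 to 22.7 RPM in control pools. No alpha, delta, PP or acinar marker of the lists used had a listed peak. The part of these differences in the input rises was not tested.

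Beside these unnamed loci, 4 of 50 well-known noncoding RNAs had peaks listed under those names, in 9 rows, namely Malat1, Neat1, Kcnq1ot1 and Airn. Oip5os1, also among the 50, was listed as 1700020I14Rik and is not in that count. By the authors' deposited annotation of the peak centre, 16 of the 38 noncoding peaks were centred in the last exon, 9 in another exon and 12 in an intron, and 1 had no class. Peaks of the 81 were 108 to 3729 spliced bases long, with a median of 680, beside 630 over the list. Their median input was 4.75 RPM, against 6.68 RPM over the list, and 3.71 RPM at the noncoding peaks. Per kilobase of spliced peak the medians were 6.99, 10 and 6.29 RPM. Input counts averaged under 20 at 4 of the 81 peaks.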

How the data were processed

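The 12 libraries (m6A IP and input of 3 pools in each genotype) were summarised in a single table of 1233 peaks that the authors deposited as significantly different. Reads came as 150 bp pairs. HOMER 4.9.1, BWA 0.7.12, fastp 0.19.11 and the build GRCm38.p6 appear in the submitters' processing notes, with no roles. Which peak caller and counting with which strand setting were used is not given in the sources used here. Per the file headers, the authors deposited raw read counts per peak and library, library totals, and RPM values that equalled count over total within 0.0005. The deposited fold enrichment is a ratio per peak, the deposited log2 columns give the differential fold change and the log2 ratio of mean pool enrichment, and the deposited FDR column was read as a score. A further 6 per-pool columns were not used.

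Members were taken by symbol, filled from the Ensembl identifier by GENCODE M21 in the 109 rows with none deposited. Members and gene lists were chosen with earlier results of these data known. edgeR 4.0.16 (R 4.3.3) fitted all 1233 peaks by quasi-likelihood with total reads as library size, 4 groups (genotype by IP or input), and Benjamini-Hochberg adjustment at 0.05. Enrichment was the IP-minus-input difference in KO minus that in control, and the enrichment, IP and input contrasts share libraries. P-values compare a difference with the spread between pools, using a variance estimate that borrows from all 1233 peaks. The main fit had no term that links IP and input of a pool. DESeq2 1.42.0, TMM and single-pool omissions were alternatives. DESeq2 and TMM both took their scaling factors from the listed peaks. Near copies were sought with BLAST+ 2.17.0 at 95% identity over 100 bases. The gene matched by 1 pseudogene is not reported here. DRACH (D is A, G or T; R is A or G; H is A, C or T) was searched on both strands. A gene body was overlapped from 1 base.

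Members were named by a rule: the smallest adjusted p for enrichment, input and IP, the highest input, the largest deposited changes, overlaps with other listed peaks, os symbols, coding members, and members with several peaks. A230057D06Rik, A330023F24Rik, 1700020I14Rik, Gm30648, Gm26617, Gm26658, Gm26714, Gm6368, Gm37939, Gm18706, Gm20716, Gm27241, Gm28285 and Gm340 fell outside it and were chosen after their values were seen.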

Additional observations from a re-analysis of the deposited data

How the results depend on the processing

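Enrichment calls among the 81 peaks (51 lower, 2 higher) became 1 and 2 under TMM, 4 and 5 under DESeq2, 39 and 1 with the replicate block (also by pool), 49 and 1 at a mean input count of at least 20, and 50 and 2 with halved counts. Over the list, enrichment calls became 9 and 39 under TMM, 17 and 63 under DESeq2, and 482 and 18 with the replicate block (520 and 23 by pool). At a mean input count of at least 20 they were 678 and 20, and with halved counts 684 and 28. IP calls (52 lower, 5 higher) became 1 and 7 under both TMM and DESeq2. DESeq2, like TMM, was scaled on the listed peaks and not to total reads, so these are not separate checks. The median enrichment change of all listed peaks was -0.04 under DESeq2 and -0.07 under TMM, against -1.02 under total reads. Input falls (0) became 1 under TMM and 3 under DESeq2. Leaving out single pools gave 12 to 62 lower and 0 to 4 higher for enrichment, 15 to 65 and 1 to 5 for IP, and 0 to 1 lower and 8 to 13 higher for input. The cause was not tested. With the deposited symbol alone, a choice made after seeing the data, 36 peaks were listed lower and 1 higher, enrichment fell at 24 and rose at 0, IP fell at 26 and rose at 1, and input rose at 5. Same-strand overlap with coding genes was 17 by body and 9 by exons, noncoding or pseudogene types 44 by GENCODE and 25 by RefSeq (which had an entry for 55 of the 81 and differed in coding status for 1), and DRACH 74 against 33 for GGAC.

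Signs changed under TMM and DESeq2 for 2010111I01Rik (0.03 and 0.06), 1700020I14Rik (0.03 and 0.05), Gm26918 (0.11 and 0.14), Gm17690 (0.14 and 0.17), Gm26377 (0.04 and 0.06), Gm19590 (0.16 and 0.18), Gm28036 (0.19 and 0.21), Gm20716 (0.49 and 0.51), Gm27241 (0.23 and 0.26), Gm340 (0.61 and 0.63), and 4632427E13Rik (0.49 and 0.51, then 0.52 and 0.55); without control replicate 2 they changed for Gm11973 (-0.12, in a range of -0.12 to 0.52 over single omissions) and Gm37939 (-0.15, in a range of -0.15 to 0.48). IP and input of a pool were paired by the number in the titles, as libraries of the same RNA. Over peaks, their deviations from the group mean correlated at only -0.071 to 0.064, so the counts do not show this pairing. Same-numbered KO and control libraries correlated at -0.328 to 0.099, and numbers were not taken to pair genotypes. The limma alternative was not run because counts were deposited.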
